A study of Homo sapiens with 6 samples.

Results

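TMEM176A and TMEM176B were followed across the cells of 6 single-cell RNA libraries from human retinal organoid fragments. The pair was taken by gene symbol, and makes up 2 of the 36601 genes listed in the count matrices. The organoids were grown from WA09 CRX-tdTomato, an established human embryonic stem cell line in which a red reporter marks cells that use CRX, a photoreceptor transcription factor. They were between day 113 and day 126 when they were broken by trituration into fragments. In each of 3 experiments, called Sets, fragments were either kept in a dish (cultured, n = 3) or placed under the retina of normal dogs (transplanted, n = 3), and both were collected after 3 days. By the study's design text, fragments of 1 batch went into both arms of an experiment, so the Set pairs the samples. All 6 samples shared the cell line, the organoid age range and the trituration, and there was no untriturated control. The placing of the fragments and their stay under the retina cannot be told apart. How many organoids or dogs went into a sample is not stated in the sources used here. Unless said otherwise, the tests take out the differences between Sets or libraries, so p-values measure only the spread then left between these samples. The members were chosen by their measured levels in transplanted against cultured samples, and that contrast is therefore given below as a description, with no test.

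TMEM176A and TMEM176B encode small proteins with several membrane-spanning stretches, related to the MS4A family. They sit in the membranes of endosomes, lysosomes and the Golgi apparatus, and often in the same cells. TMEM176B has been described as a cation channel of intracellular vesicles that restrains the inflammasome, and both proteins have been linked to antigen handling on MHC class II in dendritic cells. Rods and cones are the light-sensing neurons of the retina, Müller glia are its supporting cells, and amacrine cells are inhibitory interneurons of its inner layers.

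The genes lie head to head on chromosome 7 of GRCh38. In the GENCODE release 29 annotation, TMEM176B (ENSG00000106565) spans 150791285 to 150801360 on the minus strand, with 6 transcripts. TMEM176A (ENSG00000002933) spans 150800403 to 150805120 on the plus strand, with 11 transcripts. Their annotated spans overlap by 958 bases at the 5′ ends, so that a read from there would need its strand to be assigned, and whether strand was used in counting is not given in the sources used here. The 250 bases before each RefSeq start site (GRCh38.p14; for TMEM176B the nearer of 2 listed starts) are shown because the pair shares this stretch. The starts are 405 bases apart, and 96 bases, in capitals, belong to both sequences on opposite strands. The windows are chr7:150800519-150800768 (plus strand) and chr7:150800365-150800614 (minus strand), each written 5′ to 3′ along its own gene.
TMEM176A: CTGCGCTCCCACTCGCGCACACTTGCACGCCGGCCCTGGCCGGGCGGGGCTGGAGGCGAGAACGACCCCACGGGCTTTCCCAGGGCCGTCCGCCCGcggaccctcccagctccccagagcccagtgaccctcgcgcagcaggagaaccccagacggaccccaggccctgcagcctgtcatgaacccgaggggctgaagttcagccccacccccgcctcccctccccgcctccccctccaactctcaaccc
TMEM176B: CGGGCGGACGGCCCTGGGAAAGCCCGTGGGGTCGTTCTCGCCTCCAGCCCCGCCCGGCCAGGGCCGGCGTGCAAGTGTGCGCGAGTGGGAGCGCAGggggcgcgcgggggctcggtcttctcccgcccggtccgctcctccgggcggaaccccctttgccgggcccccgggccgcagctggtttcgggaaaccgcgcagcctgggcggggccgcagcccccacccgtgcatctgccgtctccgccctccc
The TMEM176A stretch is 73.2% G and C with 20 CpG pairs, a number that 32.4% of all promoters of this length reach. The TMEM176B stretch is 78.4% G and C with 33 CpG pairs, which 8.15% of promoters reach. Motifs were searched on both strands of windows of 300 bases, reaching 50 bases past the start. The GC box GGGCGG occurred 3 times in the TMEM176A window and 6 times in the TMEM176B window, and 45.0% of the 35116 promoters hold it. None of TAATCC (the CRX and OTX2 homeobox site, held by 6.36% of promoters), TTCNNNGAA (the STAT palindrome, 7.66%), TGANTCA (the AP-1 site, 7.71%), CCAAT (34.6%), TATAAA (11.5%) or TGCTGA (17.3%) was found in either window. The shared bases hold GGGCGG and also its reverse complement CCGCCC, and these matches are counted for both genes.

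The libraries held 8000032 to 108222149 UMIs (unique molecular identifiers, the counted transcripts) in cultured samples and 6850189 to 45281930 in transplanted samples. Filtering kept 39580 cells. Cells were put in a class by their counts of the class genes: 6614 rods (NRL at 3 UMIs or more), 2653 cones (PDE6H at 3 or more and above NRL), 1300 amacrine cells (TFAP2A plus TFAP2B at 2 or more) and 5369 Müller glia (HES5 plus WIF1 plus TTYH1 at 3 or more). The 5286 cells that met several rules were held apart. Marker lists were checked against the class names. Rod markers summed to 2008 to 3478 CPM (counts of a gene scaled to the class total of the sample) in cultured rods and to 109 to 354 CPM in cultured Müller glia, and Müller glia markers summed to 4747 to 8786 CPM in cultured Müller glia. The rods were not free of other markers: cultured rods held Müller glia markers at 664 to 2726 CPM and retinal pigment epithelium markers at 343 to 2674 CPM. Cones and amacrine cells were mixed as well. Cultured cones held rod markers at 952 to 2559 CPM beside 1187 to 1605 CPM of cone markers. Cultured amacrine cells held Müller glia markers at 345 to 4372 CPM beside 669 to 1597 CPM of amacrine markers. The classes are therefore named by their rule genes and not by all their markers. At most 41 cell barcodes were shared by any pair of libraries, or 0.870% of the smaller one. Set 1 was processed with another Cell Ranger version than Sets 2 and 3, so version and Set cannot be told apart, but both samples of a Set had the same version.

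Both genes were higher in transplanted than in cultured rods in each of the 3 Sets, which is the contrast by which they were chosen. TMEM176A stood at 164, 108 and 12.4 CPM in cultured rods of Sets 1, 2 and 3, and at 477, 339 and 213 CPM in transplanted rods. TMEM176B stood at 201, 159 and 18 CPM in cultured rods and at 589, 584 and 369 CPM in transplanted rods. The cultured sample of Set 3 was lower than the other cultured samples for both genes. The group means were 94.8 ± 76.6 and 343 ± 132 CPM for TMEM176A, and 126 ± 95.9 and 514 ± 125 CPM for TMEM176B (SD, n = 3 each). Within Sets 1, 2 and 3 the ratio of transplanted to cultured was 2.91, 3.14 and 17.2 for TMEM176A, and 2.93, 3.67 and 20.5 for TMEM176B. On the log2 scale the mean within-Set difference was 2.43 ± 1.45 for TMEM176A and 2.60 ± 1.54 for TMEM176B (SD, n = 3). Set 3 sets much of that mean: without it the differences were 1.60 and 1.71. Its cultured value rests on 22 UMIs of TMEM176A and 32 of TMEM176B in 317 rods, giving 95% counting intervals of 3.50 to 4.78 and 3.86 to 4.91 for the Set 3 log2 differences, which cover counting error only.

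**Figure D1:**
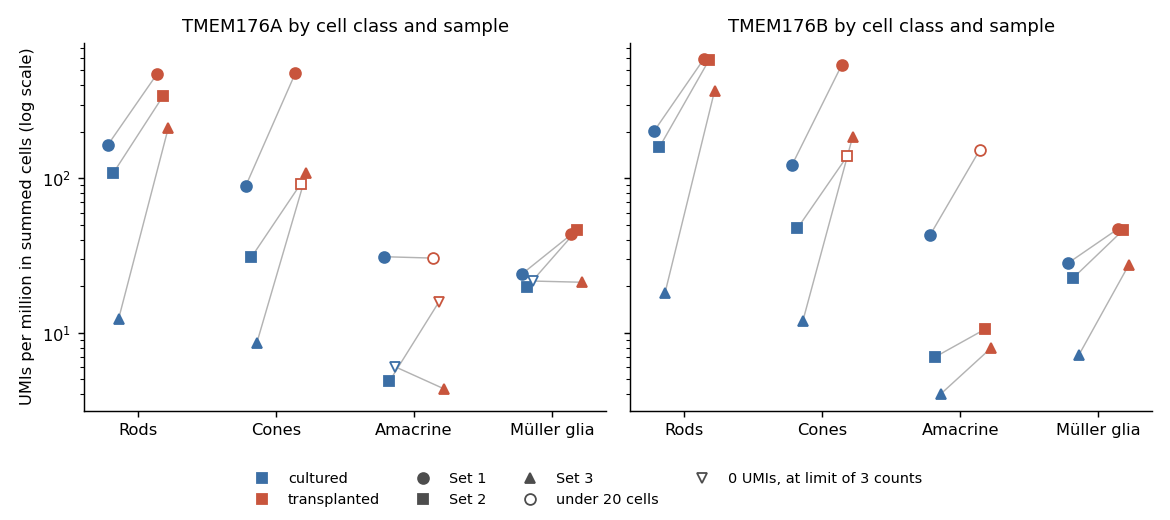
TMEM176A (left) and TMEM176B (right) in CPM on a log axis, by cell class, with cultured samples in blue, transplanted samples in red, 1 symbol shape per Set and lines joining the samples of a Set. Transplanted rod points lie above the cultured rod points of their Set, a contrast by which the pair was chosen. Measured amacrine and Müller glia values stay below the rods of the same sample. Inverted open triangles mark samples with 0 UMIs, drawn at the limit that 3 counts allow, and other open symbols mark sums of fewer than 20 cells.

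Mitochondrial RNA and some markers of other cell types moved with the same groups. The median mitochondrial share of a rod's UMIs was 1.66%, 2.79% and 1.06% in cultured samples of Sets 1, 2 and 3, and 4.22%, 3.87% and 3.30% in transplanted samples. Müller glia markers summed to 664 to 2726 CPM in cultured and 490 to 1556 CPM in transplanted rods, which overlap. By the edgeR test with the Set as a block, 2 of 10 Müller glia markers fell in transplanted rods (HES1 -2.01 ± 0.30, CLU -1.37 ± 0.34), as did 1 of 2 tested astrocyte markers (GJA1 -3.71 ± 0.66) and 8 of 14 cell cycle genes, among them TOP2A (-2.77 ± 0.25) and MKI67 (-2.41 ± 0.37), where 2.21% of all genes fell. Of the tested amacrine markers only GAD1 passed (-1.79 ± 0.43), beside GAD2 (-1.11), SLC6A9 (-0.21) and MEIS2 (0.41). Amacrine markers summed to 261 to 662 CPM in cultured and 280 to 795 CPM in transplanted rods, which overlap. Retinal pigment epithelium markers went both ways: TYRP1 fell (-1.84 ± 0.48) and DCT rose (1.28 ± 0.26), where 1.41% of all genes rose. The part of these changes in the levels of the pair was not tested.

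Cells just under and at the NRL threshold also held TMEM176A. In the cultured sample of Set 1 it was 101 CPM in cells with 2 NRL UMIs, which are not rods by the rule, and 141 CPM in cells with 3. In the transplanted sample of Set 1 it was 354 and 391 CPM. The same pairs of values were 61.3 and 86.3 CPM in the cultured sample of Set 2, 32.7 and 4.64 CPM in that of Set 3, 77.5 and 42.0 CPM in the transplanted sample of Set 2 (11 and 5 cells), and 55.1 and 120 CPM in that of Set 3. In every sample but the cultured one of Set 3, cells on either side of the threshold held less TMEM176A than rods as a whole.

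Cones showed the same direction in the 2 Sets that could be compared. TMEM176A was 89.2, 30.8 and 8.57 CPM in cultured cones of Sets 1, 2 and 3, and 480 and 108 CPM in transplanted cones of Sets 1 and 3. TMEM176B was 122, 47.5 and 12 CPM in cultured cones, and 539 and 186 CPM in transplanted cones of Sets 1 and 3. The transplanted sample of Set 2 held only 13 cones, under the minimum of 20, with 92.5 and 139 CPM. The log2 difference was 2.43 in Set 1 and 3.65 in Set 3 for TMEM176A, and 2.15 and 3.95 for TMEM176B. The transplanted cones of Set 1 stood near the rods of that sample, and those of Set 3 at about the level of the cultured rods of Sets 1 and 2.

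Müller glia held less of both genes. TMEM176A was 24.0 and 19.9 CPM in cultured Müller glia of Sets 1 and 2 and 0 UMIs in the 30 cells of Set 3, which allows up to 21.6 CPM. In transplanted Müller glia it was 43.4, 46.3 and 21.3 CPM, the second from 25 cells. TMEM176B was 28.3, 22.8 and 7.21 CPM in cultured and 47.0, 46.3 and 27.5 CPM in transplanted Müller glia. Transplanted values were thus above cultured values in every Set that gave a ratio, but by less than in rods: the log2 differences were 0.86 and 1.22 for TMEM176A in Sets 1 and 2, and 0.73, 1.02 and 1.93 for TMEM176B. The counting intervals included 0 in Set 2 (-0.14 to 2.32 for TMEM176A, -0.33 to 2.12 for TMEM176B) and, for TMEM176B, in Set 3 (-0.66 to 7.28), where 1 UMI made up the cultured value. Whether the difference in Müller glia is smaller than in rods was not tested. With the cells that met several rules added back, the mean log2 difference of Müller glia came to 2.78 for TMEM176A and 2.66 for TMEM176B. Each such cell was then counted in every class whose rule it met, and 3405 cells met both the rod and the Müller glia rule. These values thus include cells that also count as rods.

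Amacrine cells had low levels, below those of Müller glia in Set 2 and in the transplanted sample of Set 3. TMEM176A was 31.1 and 4.84 CPM in cultured amacrine cells of Sets 1 and 2, with 0 UMIs in Set 3 (up to 6.05 CPM allowed). In transplanted amacrine cells it had 0 UMIs in the 27 cells of Set 2 (up to 15.9 CPM) and stood at 4.33 CPM in Set 3. TMEM176B was 42.8, 7.0 and 4.03 CPM in cultured amacrine cells and 10.6 and 7.94 CPM in transplanted ones of Sets 2 and 3. The transplanted amacrine cells of Set 1 were 18 cells, under the minimum. No difference was detectable at this depth in cells that met the amacrine rule alone. The log2 difference of TMEM176B was 0.60 in Set 2 (95% counting interval -2.52 to 2.59) and 0.98 in Set 3 (-1.22 to 4.19). This depended on holding the cells of several rules apart. They were then added back to each class whose rule they met, so that some also count as rods, cones or Müller glia. The log2 differences in Sets 1, 2 and 3 came to 2.03, 2.91 and 3.21 for TMEM176A, and 2.54, 2.77 and 3.25 for TMEM176B.

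Cell by cell, more rods carried the pair after transplantation. At least 1 UMI of either gene was found in 53.1%, 62.2% and 12.3% of cultured rods of Sets 1, 2 and 3, and in 84.1%, 88.8% and 83.5% of transplanted rods. These shares depend on depth, with median UMIs per rod of 2480, 4804 and 3602 when cultured and 3003, 5285 and 4968 when transplanted. Amacrine cells, a class with little of the pair, were set beside them as background. In cultured samples 9.47%, 2.90% and 1.09% of amacrine cells had a UMI, at median depths of 1873, 4266.5 and 2435 UMIs. In transplanted samples the share was 27.8% of 18 cells, 7.41% of 27 cells and 8.65% of 185 cells, at 1717, 6817 and 7131 UMIs. Each lies below the rods of the same library, also where the amacrine cells were deeper (transplanted Sets 2 and 3).

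To compare equal depths, each rod was thinned to 2000 UMIs, and shallower rods were left out (593, 125 and 73 of the cultured and 305, 10 and 57 of the transplanted samples). The share of rods with no UMI of either gene was then 54.8%, 61.2% and 97.1% for the cultured and 21.0%, 27.8% and 36.7% for the transplanted samples. Rods with 5 or more UMIs made up 0.851%, 0.716% and 0% in cultured samples and 10.2%, 8.27% and 2.85% in transplanted samples. Among rods with any UMI, the mean number was 1.61, 1.57 and 1.0 for the cultured and 2.59, 2.43 and 1.97 for the transplanted samples, so that both the share of rods with the pair and the number per such rod were higher. A Poisson distribution with the same mean would leave 48.3%, 54.4% and 97.2% of cultured rods and 12.9%, 17.3% and 28.7% of transplanted rods without a UMI. The counts were thus more uneven between rods than a single shared level gives in every sample except the cultured one of Set 3, which had too few UMIs to tell.

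**Figure D2:**
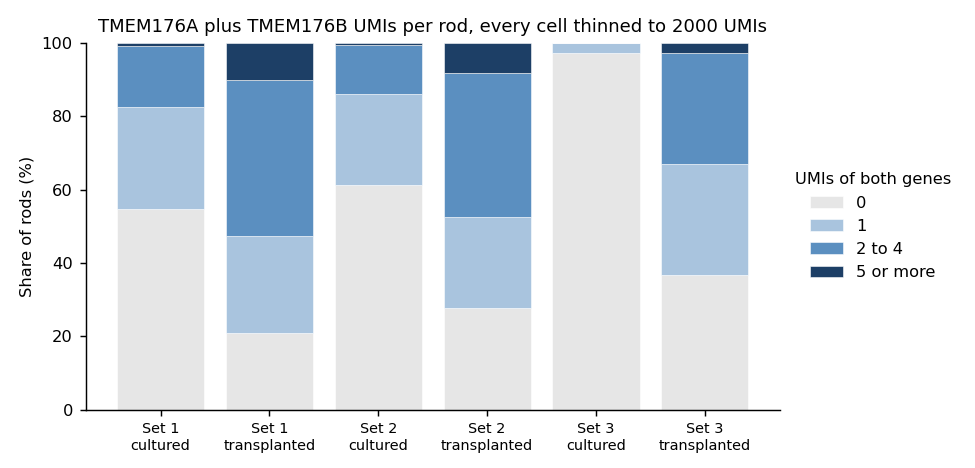
Share of rods, in percent, with 0, 1, 2 to 4, or 5 or more UMIs of TMEM176A and TMEM176B together in each of the 6 samples, after every rod was thinned to 2000 UMIs. The palest segment, rods with none, covers 54.8%, 61.2% and 97.1% in the cultured samples of Sets 1, 2 and 3 and 21.0%, 27.8% and 36.7% in the transplanted ones.

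The 2 genes were found together more often than their separate shares give. In thinned rods, both were detected in 10.7%, 8.55% and 0% of cultured and in 37.0%, 30.8% and 20.8% of transplanted rods of Sets 1, 2 and 3. The product of the separate shares gives 7.73%, 5.40% and 0.010% for cultured and 33.5%, 24.8% and 17.0% for transplanted rods. TMEM176B was seen in 42.3% of cultured Set 1 rods with TMEM176A and in 26.7% of those without. In transplanted Set 1 rods these shares were 66.9% and 53.1%. The excess was present in each of the 5 samples with enough counts and was modest, with correlations over rods of 0.195 and 0.205 in cultured samples of Sets 1 and 2 and of 0.285, 0.369 and 0.205 in transplanted samples, where the points share a library and a depth. Cones showed the same direction in the 4 samples with enough counts, for example 35.9% against 16.8% in the cultured sample and 64.8% against 57.7% in the transplanted sample of Set 1.

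**Figure D3:**
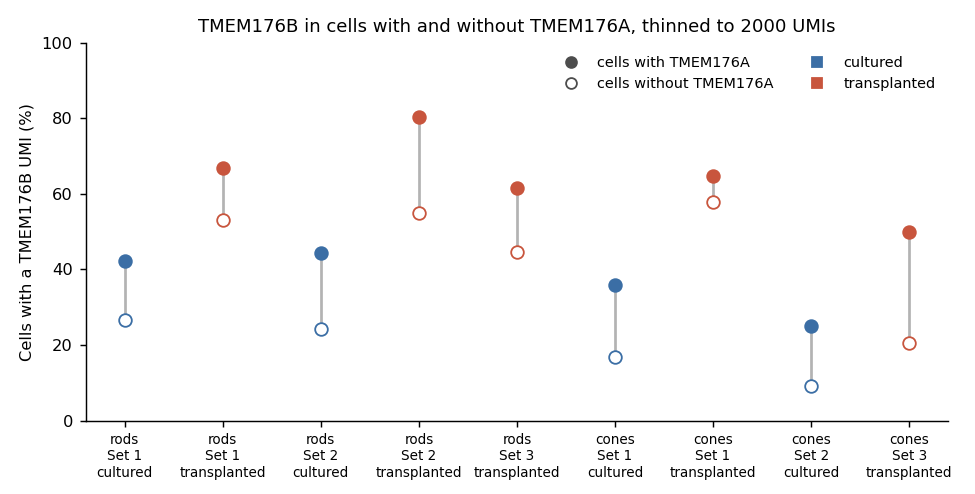
Share of cells with a TMEM176B UMI, in percent, among cells with TMEM176A (filled) and without it (open), in rods and cones thinned to 2000 UMIs, for each sample with enough cells; blue is cultured and red transplanted. The filled point lies above the open one in all 9 pairs, for example at 80.4% against 54.9% in transplanted Set 2 rods and at 64.8% against 57.7% in transplanted Set 1 cones.

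The balance between the genes moved less than their level. TMEM176A made up 44.9%, 40.5% and 40.7% of the UMIs of the pair in cultured rods of Sets 1, 2 and 3, and 44.7%, 36.7% and 36.6% in transplanted rods. TMEM176B therefore had more UMIs in rods of all 6 samples. The group means were 42.0% ± 2.48 and 39.4% ± 4.66 (SD, n = 3 each) and the ranges overlapped. The share in the cultured sample of Set 3 is imprecise, with a 95% binomial interval of 27.6% to 55.0%.

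Within the cultured samples alone, both genes differed between cell classes. This leaves out the contrast that picked the pair, although the cultured levels entered that contrast. By their means, levels ran from rods through cones to Müller glia and amacrine cells, and the last 2 overlapped. By the edgeR quasi-likelihood test with the Set as a block and Benjamini-Hochberg adjustment over 17254 genes, TMEM176A was lower in Müller glia than in rods by a log2 difference of -2.53 ± 0.28 (SE; adjusted p = 5.40e-06) and TMEM176B by -2.70 ± 0.29 (adjusted p = 5.79e-06). In that comparison 31.7% of all genes passed the threshold of 0.05. Amacrine cells were lower than rods by -3.94 ± 0.40 for TMEM176A (edgeR, adjusted p = 1.43e-06) and -3.74 ± 0.38 for TMEM176B (edgeR, adjusted p = 2.82e-06), where 28.3% of genes passed. Müller glia were lower than cones by -1.38 ± 0.29 (edgeR, adjusted p = 0.00134) and -1.65 ± 0.29 (edgeR, adjusted p = 0.000408), where 36.9% passed. Cones were lower than rods by -1.15 ± 0.26 for TMEM176A (edgeR, adjusted p = 0.0129) and -1.05 ± 0.26 for TMEM176B (edgeR, adjusted p = 0.0266), where 6.28% of genes passed.

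**Figure D4:**
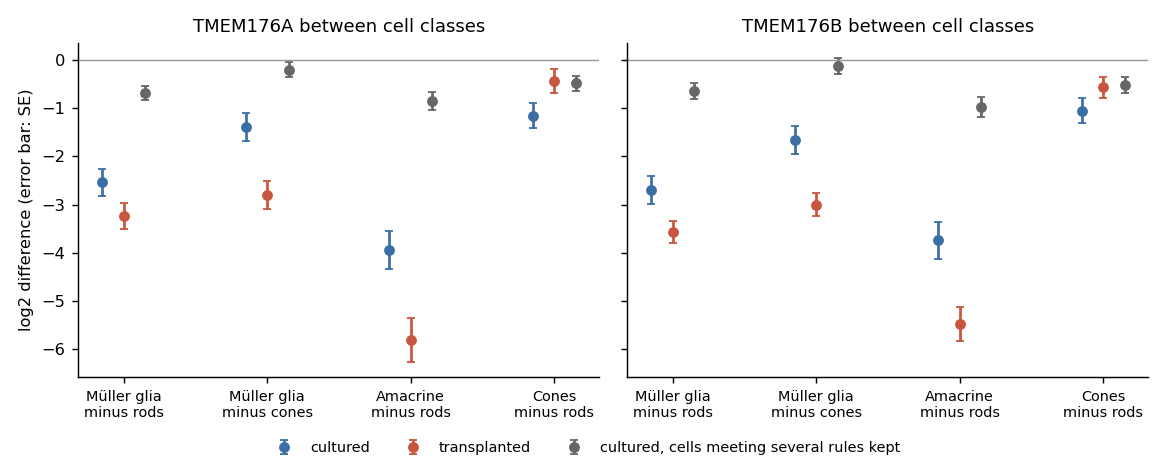
Fitted log2 differences of TMEM176A (left) and TMEM176B (right) between cell classes, with SE as error bars, in cultured samples (blue), transplanted samples (red) and cultured samples with the cells that met several rules added back (grey). Every point is below 0. The Müller glia minus rods difference of TMEM176A moves from -2.53 in cultured samples to -0.68 with those cells added. They are added to each class whose rule they met, so the grey points compare sums that share cells.

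The same order of rods above Müller glia and amacrine cells was found in the transplanted samples, at -3.24 and -3.57 for Müller glia minus rods and -5.81 and -5.48 for amacrine cells minus rods, where 34.3% and 24.7% of all genes passed. Müller glia minus cones gave -2.80 and -3.00, beside 28.9%. Cones minus rods did not pass there, at -0.43 for TMEM176A (edgeR, adjusted p = 0.624) and -0.57 for TMEM176B (edgeR, adjusted p = 0.295), beside 1.19% of all genes. The levels in transplanted samples entered the choice of the pair, as did the cultured ones. The class differences in transplanted samples are therefore a description and no separate check of the cultured order. None of the 8 calls in cultured samples passed without the block, where 0.348% (Müller glia minus rods), 2.17% (Müller glia minus cones), 1.61% (amacrine cells minus rods) and 0% (cones minus rods) of all genes did. The cells of several rules were also added back, each to every class whose rule it met. The class sums then share counts, which by itself draws them together, so these fits are no separate check of the class differences. Müller glia and cones then did not differ past the threshold (-0.20 and -0.12, beside 29.3% of all genes), nor did cones and rods (-0.48 and -0.52, beside 7.65%). Müller glia minus rods (-0.68 and -0.65) and amacrine cells minus rods (-0.85 and -0.97) still passed, beside 16.3% and 25.4% of all genes. Both cones minus rods calls were also lost without Set 2 (-0.76 and -0.60) or Set 3 (-1.19 and -1.11), and that of TMEM176A in Müller glia minus cones without Set 1 (-0.66).

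Rods with and without the pair were then compared inside each library, which the choice of the genes did not use. Positive rods had at least 2 UMIs of both genes together and negative rods had 0, in the 4 libraries with 20 or more cells on each side (the cultured samples of Sets 1 and 2 and the transplanted samples of Sets 1 and 3). The 2 libraries of a Set share an organoid batch, so the libraries are not all independent. Positive rods carried more GUCA1B and VTN and less GADD45B and NFIB, both with all UMIs and after thinning. By edgeR's quasi-likelihood test with the library as a block and Benjamini-Hochberg adjustment, 493 of 13135 genes passed (3.75%), 297 higher (2.26%) and 196 lower (1.49%). Positive rods were also deeper, with median UMIs of 3277.5 against 2197 and 7371 against 3296 in the cultured samples of Sets 1 and 2, and of 3692 against 1699.5 and 6149 against 3662 in the transplanted samples of Sets 1 and 3. After thinning to 2000 UMIs, with 5 libraries, 99 of 8821 genes passed (1.12%), 49 higher (0.555%) and 50 lower (0.567%). Of these, 30 higher and 28 lower genes passed both ways, which is 10.1% and 14.3% of the calls from all UMIs and 61.2% and 56% of the thinned ones. Only 267 of the 297 higher and 125 of the 196 lower calls could be tested after thinning.

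Among photoreceptor genes, GUCA1B, which encodes a calcium-sensing activator of guanylate cyclase, was 109 ± 52.6 CPM in positive and 50.4 ± 29.3 CPM in negative rods (SD, n = 4 libraries). Its log2 difference was 1.28 ± 0.11 (edgeR, adjusted p = 1.41e-10), and 0.72 after thinning (edgeR, adjusted p = 0.000515). PDE6H, the cone phosphodiesterase inhibitor used in the cone rule, was 461 ± 107 CPM against 185 ± 65.8 CPM, a log2 difference of 1.29 ± 0.15 (edgeR, adjusted p = 0.000973) that came to 0.19 after thinning (edgeR, adjusted p = 0.520). VTN, which encodes the adhesive glycoprotein vitronectin, was 77.6 ± 34.2 CPM against 33.2 ± 11.6 CPM, with log2 differences of 1.12 ± 0.12 and, thinned, 0.92. The largest difference was that of PPP1R27, a phosphatase regulatory subunit, at 1.74 ± 0.22, too low in thinned cells to be tested. RBP4, a retinol carrier, had 1.19 and, thinned, 0.49 (edgeR, adjusted p = 0.172). PTGDS, SPON2, AF279873.4, PPP1R14A and AC006974.2 completed the 10 largest rises, and of these AC006974.2 also passed when thinned. Thus GUCA1B and VTN were higher at either depth and in 5 of 5 thinned libraries, AC006974.2 passed at either depth but was higher in only 3 of 5 thinned libraries, and PDE6H and RBP4 passed with all UMIs but not after thinning.

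Among the genes lower in positive rods, GADD45B, a stress and growth-arrest gene, was 39.0 CPM against 82.6 CPM, a log2 difference of -0.93 ± 0.13 (edgeR, adjusted p = 8.05e-06), and -1.14 after thinning. NFIB, a transcription factor of late progenitors and glia, had -0.86 and -0.75. MAN1A1, a Golgi mannosidase, had -0.74 and -1.26. These 3 passed both ways, and after thinning NFIB and MAN1A1 were lower in 5 of 5 libraries and GADD45B in 4 of 5. C1orf61 (-1.07), MIR4435-2HG (-0.82), CP (-0.76), GRIA4, ANXA1, SNTG1 and SH3BGRL (-0.66) were the other large falls with all UMIs.

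By list, to be read against 2.26% of all genes higher and 1.49% lower with all UMIs, and 0.555% and 0.567% after thinning, 4 of 6 tested cone markers were higher in positive rods with all UMIs (GNAT2 0.85, RXRG 0.66, THRB 0.54, GNB3 0.45), and 1 of 3 (GNB3) after thinning. None of 8 rod markers passed with all UMIs, while 3 of 7 were higher after thinning: CNGA1, a channel subunit of rods (0.96), RCVRN, which encodes recoverin (0.37), and ROM1, a disc rim protein (0.35). Of the Müller glia markers, 4 of 10 were lower with all UMIs, among them HES1 (-0.62), and 2 of 5 after thinning (VIM -0.79, CLU -0.56). Cell cycle genes were lower for 5 of 13, and for 0 of 2 thinned. None of 4 inflammasome genes, 2 MHC class II genes or 16 endolysosome genes passed. Without the library as a block no gene passed the edgeR test, and 72 did at an unadjusted p under 0.05. The calls numbered 255 without the libraries of Set 1 and 243 without that of Set 2.

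Positive and negative cones could not be separated in the same way. No gene of 8748 passed by edgeR with the library as a block (0%), 254 had an unadjusted p under 0.05, and DESeq2 called 0 as well. After thinning, 5 of 4835 genes were lower (0.103%), from 2 libraries.

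None of the testable genes around the pair passed the threshold in rods. Of 40 genes within 500 kb, 15 could be tested between transplanted and cultured rods, and 0 passed the edgeR test with the Set as a block, where 3.62% of all 15307 genes did. Their median log2 change was -0.25, against -0.03 over all genes, and it was 0.24 with the cells of several rules added back. AOC1, a diamine oxidase gene and the nearest that could be tested at 19507 bases, was barely expressed, at 0, 2.62 and 1.69 CPM when cultured and 0, 2.64 and 7.45 CPM when transplanted, a log2 change of 1.22 ± 0.69 (edgeR, adjusted p = 0.387). KCNH2, a potassium channel gene, had -0.34 ± 0.25 (edgeR, adjusted p = 0.533). SLC4A2, an anion exchanger gene, stood at 16.0, 12.2 and 15.8 CPM in cultured rods and at 7.40, 7.93 and 7.66 CPM after transplantation, a change of -0.90 ± 0.29 (edgeR, adjusted p = 0.108). None of 13 tested neighbours in cones, 10 in amacrine cells or 14 in Müller glia passed either, beside 1.4%, 0% and 0.248% of all genes there.

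**Figure D5:**
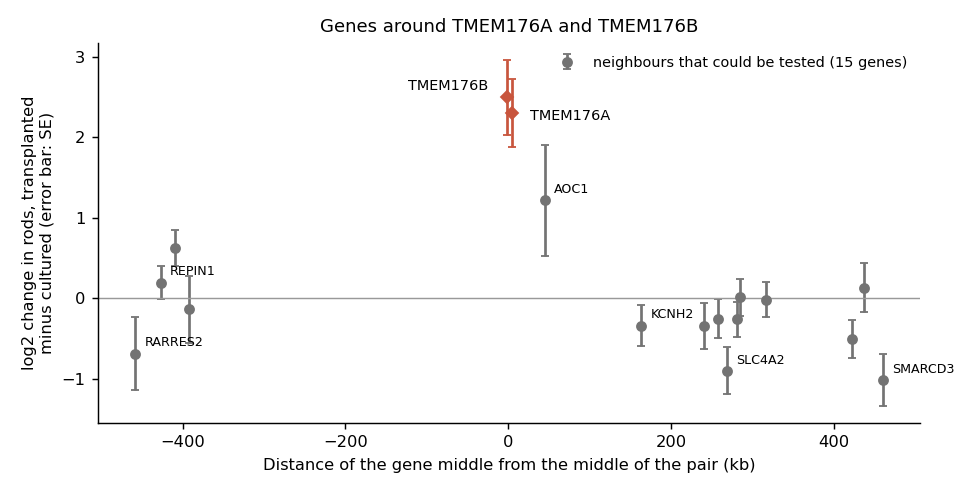
Log2 change in rods, transplanted minus cultured, with SE as error bars, of TMEM176A and TMEM176B (red) and of the 15 testable genes within 500 kb (grey), against the distance of each gene's middle from the middle of the pair in kb. The pair, which this contrast picked, stands at 2.30 and 2.49, and the nearest testable gene, AOC1, at 1.22 with an SE of 0.69.

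Gene families and processes linked to the pair were described by the same contrast. None of the 16 MS4A family genes was expressed enough to be tested in any class, and they summed to at most 6.19 CPM in cultured rods. Of 9 inflammasome genes tested in rods, where 1.41% of all genes rose, 2 rose: AIM2, a sensor of cytosolic DNA, from 0.81, 4.84 and 2.25 to 3.96, 18.5 and 9.39 CPM (log2 2.10 ± 0.40, edgeR, adjusted p = 0.0083), and TXNIP, which binds thioredoxin and NLRP3, from 110, 87.1 and 37.1 to 160, 185 and 136 CPM (1.20 ± 0.28, edgeR, adjusted p = 0.0271). TXNIP also rose in cones (1.95 ± 0.42, edgeR, adjusted p = 0.0016), as did 0.622% of all genes. The median over the 9 genes was -0.01, against -0.03 over all genes. Of 4 MHC class II genes tested in rods, HLA-DRB1, an antigen-presenting chain, rose from 13.2, 7.18 and 4.50 to 23.8, 15 and 15.9 CPM (1.18 ± 0.30, edgeR, adjusted p = 0.0365), while CD74 and HLA-DRA stayed at or under 0.53 and 0.20 CPM. The 16 endolysosome genes tested in rods gave 0 calls and a median of -0.02. CD63, the highest of them and a late endosome tetraspanin, stood at 1017, 765 and 166 CPM when cultured and at 850, 279 and 346 CPM when transplanted. Without Set 1, 5 of all genes passed in rods, and without the block 0 passed by edgeR in rods or cones (365 and 57 at an unadjusted p under 0.05).

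Markers of immune cells, which are known to use the pair, were low in rods. The 16 myeloid markers summed to 3.45 to 19.7 CPM in cultured and 2.6 to 12.6 CPM in transplanted rods, and C1QC and LAPTM5 had 0 UMIs in all 6 samples. In the transplanted samples of Sets 1, 2 and 3, 36, 4 and 11 cells met the myeloid rule, against 1, 2 and 0 in the cultured samples. The transplanted ones held 0 UMIs of TMEM176A and 1, 0 and 1 UMI of TMEM176B. Whether they were dog cells, whose RNA may be missed when counted on the human genome, was not tested. These counts therefore cannot tell whether immune cells hold the pair. Of 2 T and NK cell markers tested in rods, 1 rose and 1 fell. IL7R, an interleukin receptor chain, fell from 5.88, 3.13 and 3.38 to 1.85, 0 and 0.108 CPM (log2 -2.68 ± 0.71, edgeR, adjusted p = 0.0456). TRAC, the T cell receptor alpha constant gene, rose from 3.45, 8.66 and 2.81 to 10.8, 26.4 and 23.5 CPM (log2 2.0 ± 0.33, edgeR, adjusted p = 0.0035), while CD3D, CD2, CD7 and NKG7 had 0 UMIs.

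The genes whose level most resembled the pair's were looked for over 22 sums of a sample and a class, among 8214 genes. Each gene's log2(CPM + 1) was correlated with the mean of the pair's. The Pearson correlation was 0.964 for UBE2B, a ubiquitin-conjugating enzyme, 0.935 for TMEM107, a ciliary membrane protein, 0.917 for DDIT3, the stress factor CHOP, and 0.913 for DEPP1. SYS1 (0.910), CDKN1C (0.907), UFL1 (0.902) and UBXN4 (0.899) followed. TMEM176A and TMEM176B had 0.951 with each other, which is not to be ranked beside correlations with their mean. The sums share libraries and classes, so these are descriptions. In rods, DDIT3 averaged 223 ± 38.0 CPM when cultured and 420 ± 131 CPM when transplanted (SD, n = 3 each), and CDKN1C, a cell cycle inhibitor, was 197 ± 23.2 and 346 ± 61.6 CPM. UBE2B was 231 ± 64.5 and 322 ± 42.3 CPM.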

How the data were processed

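Droplet single-cell RNA-seq was done on 3 cultured and 3 transplanted samples. The deposited matrices hold whole UMI counts per gene and cell, made by the authors with Cell Ranger 6.0.2 (Set 1) and 7.1.0 (Sets 2 and 3), per the file headers, on GRCh38, per the submitters' processing notes. Whether introns were counted, and whether counting used strand, is not given in the sources used here. Feature and barcode files hold names only.

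A cell was kept if it had 1000 or more UMIs, 500 or more genes and no more than 20% mitochondrial UMIs. Doublets were scored with Scrublet (Scanpy 1.11.5), and the highest-scoring cells were removed at 0.8% per 1000 cells. Classes followed the UMI rules given above, and a class needed 20 cells in a sample. Counts were summed per sample and class and tested with edgeR 4.0.16 (R 4.3.3; filterByExpr, TMM, quasi-likelihood, Benjamini-Hochberg at 0.05), with the Set, or the library for positive against negative cells, as a block. Intervals are 95% exact, and limits for 0 UMIs use 3 counts. The tests were tried on simulated data. The Sets pair the samples by the study's design text. Deviations of rod sums from the group means correlated at 0.957, 0.646 and 0.814 within Sets 1, 2 and 3 over 7931 genes, but also at 0.705 and 0.754 between Sets 2 and 3, so the values mainly set Set 1 apart and do not by themselves pair Sets 2 and 3.

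The pair, the gene lists and the rules were chosen with earlier results of these data known. Named genes were the 10 largest called rises and falls of at least 30 CPM with 1 sign in every library, the 8 genes most like the pair, and up to 4 called members of each list. Alternatives were RLE factors, no low-count filter, DESeq2 1.42.0, no block, stricter cell filters and thresholds, thinning, a filter against dog host cells, leaving out each Set and, added after seeing the data, keeping cells of several rules in the transplant comparison.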

Additional observations from a re-analysis of the deposited data

How the results depend on the processing

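No log2 difference of the pair changed sign under the alternatives run, but the median change of the neighbouring genes in rods went from -0.25 to 0.24 with cells of several rules kept. Without the replicate block, the Müller glia minus rods differences of TMEM176A and TMEM176B were -2.38 and -2.51, Müller glia minus cones -1.40 and -1.61, amacrine cells minus rods -3.61 and -3.27, and cones minus rods -0.98 and -0.90, none past the threshold. The genes called in these 4 comparisons then numbered 60, 375, 278 and 0, against 5461, 6360, 4875 and 1083 with the block, and 0 were called between transplanted and cultured rods, cones and Müller glia (554, 166 and 34 with it) and between positive and negative rods. With cells of several rules kept in each class whose rule they met, so that classes share cells, Müller glia minus cones was -0.20 and -0.12. Cones minus rods was then -0.48 and -0.52. Müller glia minus rods then called 3348 genes, transplantation 98 in cones, 208 in amacrine cells and 544 in Müller glia, and the Müller glia mean changes were 2.78 and 2.66. Both genes were then detected in 65.7% of transplanted rods, at 1.11 times the product of the separate shares.

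With DESeq2, cones minus rods was -1.07 and -0.95, past no threshold, and the transplant comparison called 359 genes in rods, 83 in cones, 1 in amacrine cells and 7 in Müller glia, and 130 between positive and negative rods. The stricter cell filter gave -1.03 for TMEM176B in cones minus rods, past no threshold, and a ratio of observed to product co-detection of 1.11 in transplanted rods. In transplanted samples cones minus rods was -0.43 and -0.57, with 164 genes called, and Müller glia minus cones called 3973. RLE factors called 72 genes in Müller glia. Without a low-count filter 1 gene was called in amacrine cells, 64 in Müller glia and 18 between positive and negative cones. Counting cells with 1 UMI as positive called 319 genes in rods and 1 in cones. Thinning called 99 and 5, with both genes in 29.5% of transplanted rods and mean ratios of 0.988 (cultured) and 1.19 (transplanted). The first is below 1 because Set 3, with 0 rods holding both genes, counts as 0, beside 1.38 and 1.58 in Sets 1 and 2. Thresholds raised by 2 UMIs gave a ratio of 1.10 in transplanted rods and a TMEM176A share of 39.4% in cultured rods.

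Leaving out 1 Set or library at a time gave 2186 to 4802 genes for Müller glia minus rods, 3340 to 5464 for Müller glia minus cones (TMEM176A -1.84 to -0.66), 1725 to 4942 for amacrine cells minus rods, and 419 to 997 for cones minus rods (TMEM176A -1.58 to -0.76, TMEM176B -1.47 to -0.60). The first 3 lows came without Set 2 and the fourth without Set 3. It gave 5 (without Set 1) to 808 genes for transplantation in rods, 1 (without Set 1) to 147 (without Set 3) in Müller glia, 243 (without Set 2) to 491 for positive rods and 0 to 27 (without Set 3) for positive cones. The cause of these shifts was not tested. Few UMIs of the pair limit the cultured sample of Set 3 and the small Müller glia and amacrine sums.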

Other observations

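Further groups of cells outside the 4 class rules held the pair. Bipolar cells, the interneurons fed by photoreceptors, had TMEM176B at 154, 103 and 9.37 CPM in cultured and 404, 203 and 136 CPM in transplanted samples of Sets 1, 2 and 3, so that the samples overlapped, from 21 to 212 cells a sample. Cells that met several rules had TMEM176A at 92.2, 51.8 and 14.9 CPM in cultured and 282, 319 and 202 CPM in transplanted samples. Cells of the retinal pigment epithelium rule, in Set 1 only, had TMEM176A at 192 CPM in 33 cultured cells and 208 CPM in 38 transplanted cells, and TMEM176B at 183 and 208 CPM. Dividing cells of the cultured Set 1 sample had 10.9 CPM of TMEM176A and 14.7 CPM of TMEM176B in 901 cells.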
